A study of Mus musculus with 15 samples.

Results

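Budding organoids of the SOX9-Halo line were compared with budding organoids of the SOX9-mEGFP line, with 3 poly-A RNA-seq libraries each. The comparison was chosen by condition alone and takes in all autosomal genes, 72844 of the 78298 genes listed, in 6 of the 15 libraries sequenced for 5 conditions. Both lines are mouse small intestinal organoids of wild-type C57BL/6J background, grown from crypts of female mice aged 8 to 16 weeks and transduced with a lentiviral Sox9 transgene under the weak ubiquitous L30 promoter, joined to HaloTag in one line (L30prom_Sox9-GDGAGLIN-Halo-V5_IRES_Puro) and to monomeric EGFP in the other (L30prom_Sox9-GDGAGLIN-mEGFP-V5_IRES_Puro). Halo-NLS organoids (L30prom_V5-Halo-GDGAGLIN-NLS_IRES_Puro), which carry HaloTag with a nuclear localization signal in place of SOX9, gave the level without a Sox9 transgene. SOX9-Halo_spheroid and SOX9-mEGFP_spheroid organoids gave the difference between the lines in another morphology, and these additionally carried H2B-mEGFP or H2B-mScarletI, respectively. The lines were selected with puromycin, with no second line for any condition. Organoids from 6 wells were pooled for each library 5 days after seeding. The paper calls a SOX9-Halo line of another background (LGR5::DTR-GFP) initially polyclonal. Both lines were taken at a budding stage, at different steps of the change to spheroids, and the comparison asks how far their transcriptomes differ. The SOX9-Halo line had been passaged more often, so that tag, line and passage cannot be told apart. Halo-NLS is likewise 1 line, so a difference from it cannot be told apart from a trait of that line. Libraries of a condition were harvested within a few passages of each other. The p-values therefore measure the spread between such harvests of 1 line, pooled over all 5 conditions of the fit, spheroids included. They measure no spread between independently made lines.

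SOX9 is a high mobility group transcription factor of intestinal crypts that is needed for Paneth cells, and it acts downstream of Wnt signalling. Budding organoids hold crypt-like buds, in which stem cells sit among Paneth cells, and villus-like parts with enterocytes, goblet cells, enteroendocrine cells and tuft cells. In bulk RNA, fewer cells of a type and less RNA per cell cannot be told apart.

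Per library, 40559766, 34644816 and 30086943 reads were counted in genes for SOX9-Halo_budding and 29279812, 33118206 and 38569142 for SOX9-mEGFP_budding. Levels are given below as normalized counts, which are read counts divided by the size of the library after scaling by the trimmed mean of M values (TMM) and brought to the mean library size. They compare a gene between libraries and not 1 gene with another, since they are not per length. Across genes, log2 normalized counts correlated at 0.9261 to 0.9892 within a line and at 0.9172 to 0.9627 between lines (Pearson's r over 11054 genes, which are not independent replicates). The libraries hold intestinal epithelium by their labels, and the epithelial gene Vil1, which encodes the microvillus protein villin, had normalized counts of 35438, 41775 and 28298 in SOX9-Halo and 40609, 34428 and 21657 in SOX9-mEGFP. Cdx2, a master regulator of intestinal identity, had 9122, 12535 and 8113 and 10569, 9959 and 9116. Both genes overlapped between the lines. Markers of other tissues were low in sum, apart from fibroblast genes. Of the 9 immune, 7 endothelial and 10 fibroblast markers, 4, 3 and 3 had enough counts to be tested, and the summed levels were at most 5.98 CPM (counts per 1000000 reads in genes) for immune cells and 2.18 CPM for endothelium in any of the 6 libraries. The fibroblast sum, between 129.7 and 258.3 CPM, came largely from Fbln1 (mean 187 CPM), a matrix gene on chromosome 15. Muscle markers (7 of 16 tested) summed to between 20.5 and 37.5 CPM, led by Acta1, and markers of neurons and glia (4 of 8 tested) to between 38.7 and 58.5 CPM, led by the receptor gene Ret.

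Sox9 itself, which both lines carry as endogenous gene and as transgene, reached 1336, 10538 and 6838 normalized counts in SOX9-Halo, 11368, 11086 and 6487 in SOX9-mEGFP and 515, 769 and 306 in Halo-NLS. The first SOX9-Halo library stood well below the other 5 budding libraries, the groups overlapped, and all 6 were above every Halo-NLS library. The log2 fold change of SOX9-Halo over SOX9-mEGFP was -0.63 (SE 0.55 and adjusted p = 1) (by the quasi-likelihood test of edgeR, adjusted after Benjamini and Hochberg, as in all tests below). Reads of the transgene and of the endogenous gene were counted together.

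The lines differed at few genes. Of 17050 autosomal genes tested, 48 rose in SOX9-Halo (0.282%) and 29 fell (0.17%), where a DEG has an adjusted p of at most 0.01, a change of at least 2-fold and an average of 10 or more normalized counts over all 15 libraries. The 48 genes that rose changed far more than those that fell: their log2 fold changes ran from 1.25 to 10.63 with a median of 5.31 (5.195 with the 4 genes at 0 in SOX9-mEGFP set to their lower bounds), and 27 exceeded 5, whereas the falls ran from -1.39 to -3.61 with a median of -2.33. Around them, 92.2% of autosomal genes differed by less than 1 on the log2 scale, with a median absolute difference of 0.21 and a median difference of 0.0106. Libraries of the lines did not overlap at any of the 77 DEGs, while 11.9% of all tested autosomal genes did not overlap either, 5.77% with every SOX9-Halo library higher and 6.16% with every SOX9-Halo library lower. The counts depended on the libraries and the tool: with the 6 budding libraries alone 17 genes rose and 2 fell, DESeq2 on all 15 libraries called 87 and 102, and leaving out 1 budding library at a time gave 33 to 56 rises and 8 to 41 falls. Each of the 77 DEGs kept its direction wherever an alternative tested it, and 6 of them, Gm42047, Zfp503, ENSMUSG00000134320, Gm43305, ENSMUSG00000127251 and Cnpy1, were called in every one of the 18 alternative fits.

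**Figure D1:**
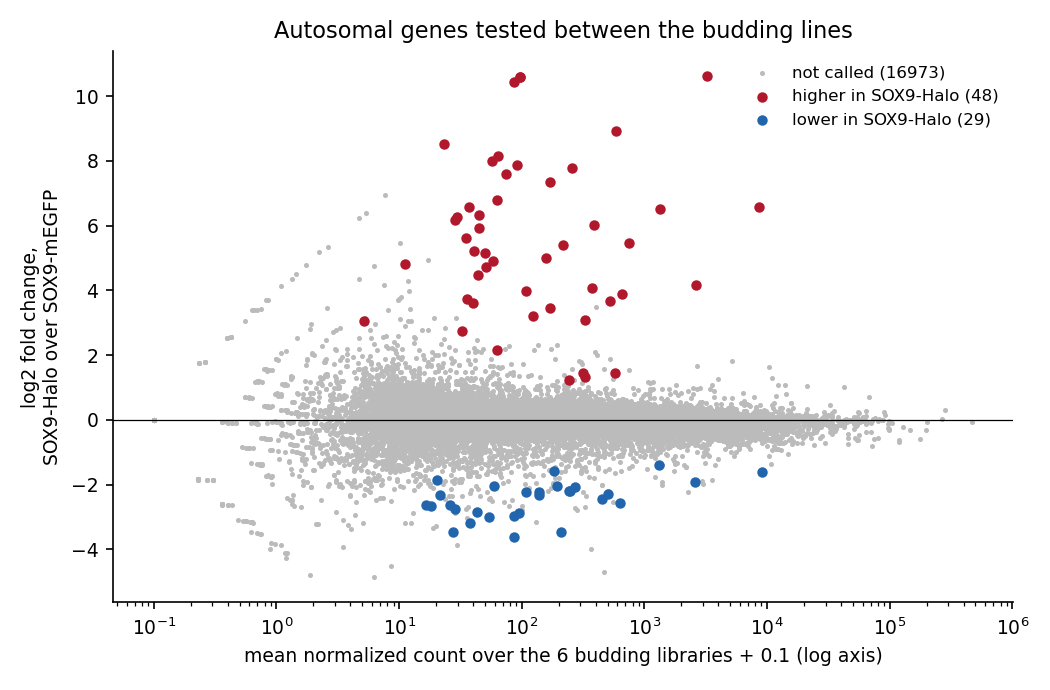
Each point is 1 of the 17050 autosomal genes tested, with its mean normalized count over the 6 budding libraries (horizontal, log axis) and its log2 fold change of SOX9-Halo over SOX9-mEGFP (vertical). The 48 rises reach 10.63 and spread over the range of levels, while the 29 falls end at -3.61.

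The rise of Zfp503, which encodes a zinc-finger transcriptional repressor (ENSMUSG00000039081, chr14:22033983-22039669), was close to the difference between presence and absence. It had normalized counts of 890.2, 1263 and 1355 in SOX9-Halo and 1.2, 2.1 and 3.1 in SOX9-mEGFP, a log2 fold change of 8.94 (SE 0.41 and adjusted p = 2.2e-08). With 1592, 1745 and 1643 in Halo-NLS, the SOX9-mEGFP line was the one that stood apart. Fam111a (ENSMUSG00000024691, chr19:12523104-12567134), a protease that protects replicating DNA and restricts viruses, had 488, 145 and 909 against 1.2, 0 and 4.7 and 482, 142 and 212 in Halo-NLS, with a log2 fold change of 7.78 (SE 0.92 and adjusted p = 0.000692). Its SOX9-Halo libraries differed among themselves by more than 6-fold, and its adjusted p was 0.0252 with the 6 budding libraries alone, 0.0252 being the highest over the alternatives. Apobec3 (ENSMUSG00000009585, chr15:79775860-79800206), a cytidine deaminase that restricts retroviruses, had 229, 247 and 436 against 13.4, 2.1 and 12.5, and 26.1, 17.2 and 42.7 in Halo-NLS. Here the SOX9-Halo line stood apart, and the log2 fold change was 5.01 (SE 0.62 and adjusted p = 0.000499).

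Among the largest rises were 4 long non-coding RNAs of unknown role. Gm42047 (chr8:122559877-122567924) had normalized counts of 5918, 4530.4 and 8814 in SOX9-Halo and 6.1, 2.1 and 3.9 in SOX9-mEGFP, with 4274, 2876 and 1820.1 in Halo-NLS, and its log2 fold change was 10.63 (SE 0.51 and adjusted p = 2.2e-08). ENSMUSG00000134320 (chr13:21997089-22004298) had 265, 237 and 512 against 2.4, 1 and 2.3, and its Halo-NLS libraries were higher still at 568, 655 and 617. Both were at a few counts in each SOX9-mEGFP library. Gm43305 (chr14:54529898-54534949) and ENSMUSG00000127251 (chr4:133886947-133891945) kept a measurable level in SOX9-mEGFP. Gm43305 had 8252, 13113 and 29587 against 164, 186 and 182, a log2 fold change of 6.58 (SE 0.45 and adjusted p = 2.19e-06). ENSMUSG00000127251 had 1567, 1483 and 4841 against 30.4, 18.7 and 36.6, a log2 fold change of 6.51 (SE 0.57 and adjusted p = 1.74e-05). Long non-coding RNAs were 35.4% of the rises and 10.3% of the falls, next to 17.4% of the autosomal genes tested.

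The remaining genes among the 10 largest rises with a mean of at least 100 normalized counts over the 6 budding libraries were Cybrd1, Cfhr2 and Cnpy1. Cybrd1 (ENSMUSG00000027015, chr2:70948267-70973270), the duodenal ferric reductase that prepares dietary iron for uptake, had normalized counts of 1169, 2800.4 and 399 in SOX9-Halo, 51, 27 and 21.8 in SOX9-mEGFP and 43.1, 39 and 12.6 in Halo-NLS. The SOX9-Halo line was above both others in each library, and its log2 fold change over SOX9-mEGFP was 5.47 (SE 0.66 and adjusted p = 0.00042). Cfhr2 (ENSMUSG00000033898, chr1:139731903-139786486), a complement factor H-related protein, had 1082, 433 and 769 against 9.7, 18.7 and 7, a log2 fold change of 6.01 (SE 0.59 and adjusted p = 0.000166). Its neighbour Cfhr4, of the same family, had 179, 57.4 and 209 against 0, 1 and 0.8, and because such paralogs share sequence their counts are uncertain. Cnpy1 (ENSMUSG00000044681, chr5:28405683-28450804), of the Canopy family of secretory pathway proteins, had 572, 305 and 404 against 14.6, 9.3 and 7 and 479.7, 387 and 189.8 in Halo-NLS. Its log2 fold change was 5.39 (SE 0.48 and adjusted p = 1.98e-05), with SOX9-Halo and Halo-NLS overlapping.

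**Figure D2:**
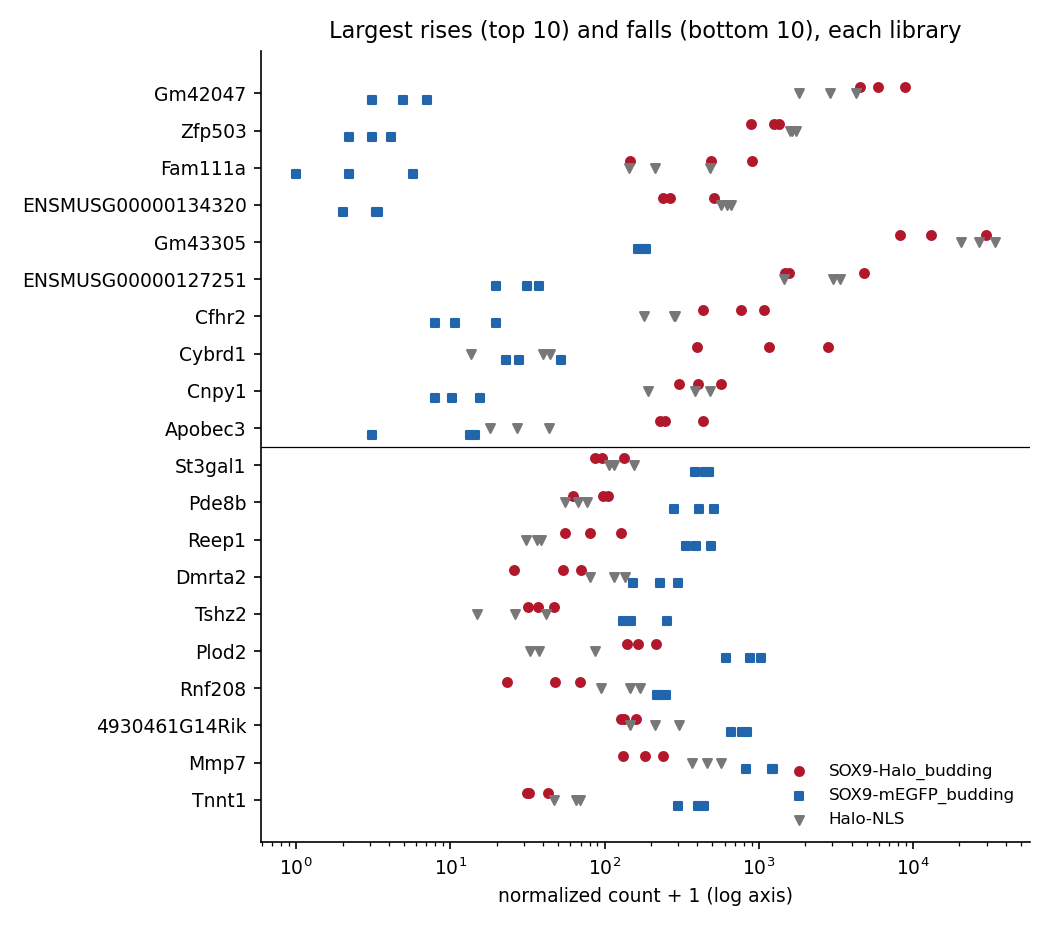
Normalized count plus 1 (log axis) in each library of SOX9-Halo_budding (circles), SOX9-mEGFP_budding (squares) and Halo-NLS (triangles) for the 10 largest rises (above the line) and the 10 largest falls (below it) among DEGs that average 100 or more normalized counts over the 6 budding libraries. SOX9-mEGFP libraries lie apart from SOX9-Halo libraries for all 20, at 1.2 to 3.1 for Zfp503 and at 298.8 to 441.5 for Tnnt1.

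Of 18 tested mucosal defence genes 2 rose, next to 0.282% of all autosomal genes tested. Both were C-type lectins of the Reg cluster on chromosome 6. The list had a median log2 fold change of -0.55, which ran from -0.798 to -0.163 over the alternatives. Reg3b, an antibacterial lectin of enterocytes and Paneth cells, had normalized counts of 1162, 598 and 1898 in SOX9-Halo, 104, 96.6 and 44.4 in SOX9-mEGFP and 68, 64.3 and 106 in Halo-NLS, a log2 fold change over SOX9-mEGFP of 3.90 (SE 0.55 and adjusted p = 0.00175). Reg1 had 8001, 5088 and 1866, 463, 292 and 83.3 and 2892, 1885 and 747, a log2 fold change of 4.16 (SE 0.66 and adjusted p = 0.00447). With the 6 budding libraries alone the adjusted p was 0.0282 for Reg3b and 0.0968 for Reg1. They were called in 15 and 13 of the 18 alternative fits. The SOX9-Halo line led for Reg3b, whereas for Reg1 its libraries overlapped those of Halo-NLS. The following DEGs were chosen after their values were seen. Ctrb1, the digestive protease precursor chymotrypsinogen B1, had normalized counts of 751, 1265 and 100.5 in SOX9-Halo, 54.7, 41.5 and 28.8 in SOX9-mEGFP and 531, 1161 and 733 in Halo-NLS, so that the third SOX9-Halo library came near the SOX9-mEGFP level. Ctrb1 was called in 8 of the 18 alternative fits, and its adjusted p was 0.155 with the 6 budding libraries alone. Aldh1l1, which encodes the folate enzyme 10-formyltetrahydrofolate dehydrogenase, had 862, 1227 and 836 against 117, 73.7 and 40.5, a log2 fold change of 3.67 (SE 0.35 and adjusted p = 3.2e-05). The groups were far apart at this gene, and Halo-NLS, at 136, 155 and 138, lay near the SOX9-mEGFP line.

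Of 245 tested solute carriers 1 rose, next to 0.282% of all autosomal genes tested. It was Slc47a1, an exporter of organic cations, with 222, 144 and 241 in SOX9-Halo against 15.8, 14.5 and 8.6 in SOX9-mEGFP and a log2 fold change of 3.98 (SE 0.37 and adjusted p = 3.2e-05), and the list had a median of -0.030 (0.00292 without chromosomes 15 and 19). None of 35 ABC transporters and none of 46 cytochrome P450 genes was a DEG.

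The Wnt ligand and receptor list and the fetal-like list each held 1 rise. Fzd3, a Frizzled receptor for Wnt ligands, had normalized counts of 52.5, 47.7 and 69.3 in SOX9-Halo, 8.5, 10.4 and 6.2 in SOX9-mEGFP and 1.3, 0 and 1.3 in Halo-NLS, a log2 fold change of 2.75 (SE 0.34 and adjusted p = 0.000499) between the budding lines. It was 1 of 22 tested Wnt ligand and receptor genes to rise, next to 0.282% of all autosomal genes tested. None of 22 tested Wnt target and feedback genes, whose median was -0.45 (0.0349 without the third SOX9-mEGFP library), was a DEG. S100a6, a calcium-binding protein counted among fetal-like intestinal markers, had 432, 457 and 867 against 64.4, 59.2 and 83.3, with 1509.5, 1369 and 1532 in Halo-NLS, and its log2 fold change was 3.08 (SE 0.26 and adjusted p = 1.57e-05). Halo-NLS had the highest level of the 3 conditions and SOX9-mEGFP the lowest. In the same list of 19 tested fetal-like and regenerative genes Ly6e fell, and the list had a median of -0.16, which was 0.215 without its 6 genes on chromosomes 15 and 19 and 0.071 without the first SOX9-Halo library. Sdc2 and Smoc1 were chosen after their values were seen. Sdc2, the heparan sulfate proteoglycan syndecan 2, had 221, 195 and 253 against 25.5, 26 and 21, with 0, 1.1 and 6.3 in Halo-NLS. It rose in SOX9-Halo, and SOX9-mEGFP lay between that line and Halo-NLS. Smoc1, a secreted inhibitor of BMP signalling, had 74.8, 133 and 162 against 2.4, 1 and 0, while Halo-NLS had 832, 1286 and 1216. Of 9 tested HOX genes none was a DEG at a median of 0.99 (-0.68 without the third SOX9-Halo library), most of them near the detection limit, with 0, 1 and 11.7 in SOX9-Halo and 3.6, 1 and 1.6 in SOX9-mEGFP for Hoxa2.

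Against Halo-NLS, the rises fell into groups. The comparisons with Halo-NLS share libraries with the comparison between the lines, so these counts are a description. Of the 48 rises, 29 were called lower in SOX9-mEGFP than in Halo-NLS, next to 0.768% of all autosomal genes tested in that comparison, and 17 others were called higher in SOX9-Halo than in Halo-NLS, next to 2.44%. For 2 neither held, and for none did both. At 20 of the 48 rises, no SOX9-mEGFP library had more than 3 reads, and at 4 all of them had 0. For these 4, which include the RNA of 1700030C10Rik (ENSMUSG00000099759), the mean of the SOX9-Halo libraries was at least 15.13-fold (Gm47761) to at least 64.07-fold (1700030C10Rik) higher than a floor of 3 reads per library. No fall was of this kind in SOX9-Halo. At 17 of the 48 rises no SOX9-mEGFP spheroid library had more than 3 reads, and 11 genes were so in both SOX9-mEGFP conditions. Of these 11, 6 had more than 3 reads in each Halo-NLS library. Gm47761 had 27.4, 42.5 and 18.9 normalized counts there and 1700030C10Rik 206, 313 and 407, while Rps4l, a paralog of the ribosomal protein gene Rps4x, had 151, 128 and 104 in SOX9-Halo, 0, 1 and 0 in SOX9-mEGFP and 0 in each Halo-NLS and spheroid library of both lines. Of 75 tested ribosomal protein genes Rps4l was the sole DEG, and the list had a median of -0.048.

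**Figure D3:**
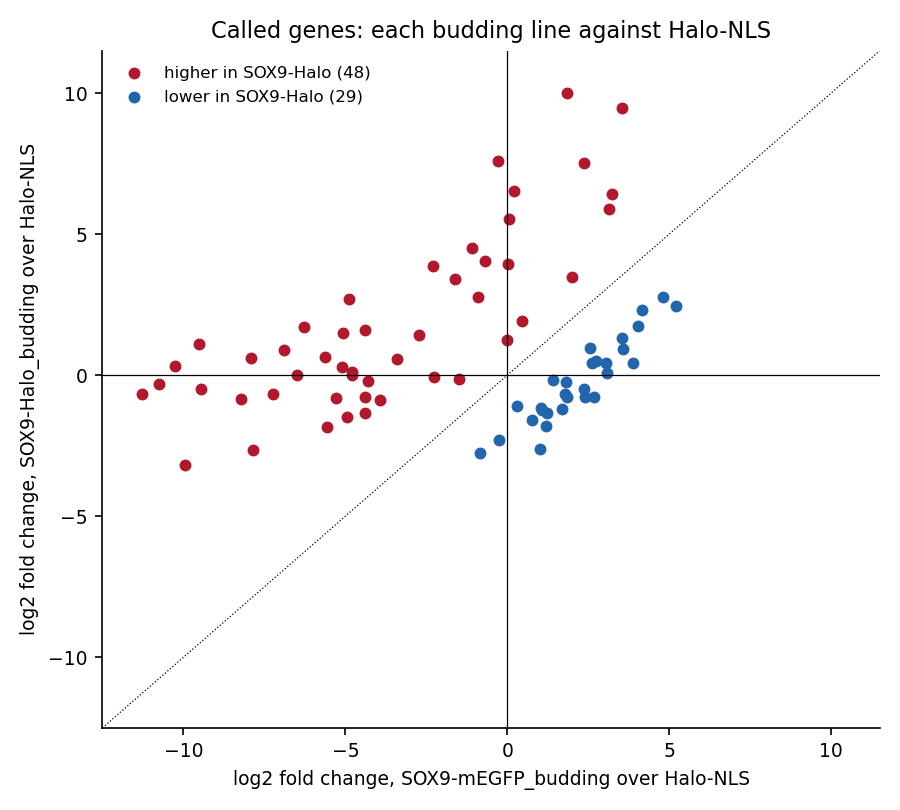
Each point is 1 of the 77 DEGs between the budding lines, placed by its log2 fold change over Halo-NLS in SOX9-mEGFP_budding (horizontal) and SOX9-Halo_budding (vertical), with equal changes on the dotted diagonal. The axes share the Halo-NLS libraries, and the distance from the diagonal is the line difference that chose the genes. Of the 48 rises (above the diagonal) 29 were called lower than Halo-NLS in SOX9-mEGFP, and of the 29 falls (below it) 19 were called higher.

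Falls in SOX9-Halo were smaller and nearly all protein coding (26 of 29). Tnnt1 (ENSMUSG00000064179, chr7:4507567-4519381), the troponin T of slow skeletal muscle, had normalized counts of 42.2, 30.2 and 31.2 in SOX9-Halo, 299, 402 and 442 in SOX9-mEGFP and 64, 45.9 and 67.9 in Halo-NLS, a log2 fold change of -3.46 (SE 0.36 and adjusted p = 0.000237). It was 1 of 7 tested muscle markers to fall, next to 0.17% of all autosomal genes tested. The most abundant of these markers, the skeletal actin gene Acta1, had 526, 828 and 983 in SOX9-Halo and 397, 303 and 272 in SOX9-mEGFP. Acta1 was higher in each SOX9-Halo library but not a DEG. Mmp7 (ENSMUSG00000018623, chr9:7692091-7699587), the matrilysin with which mouse Paneth cells activate their defensins, had 183, 237 and 131 against 1224, 820.3 and 1230.3, with 571, 458 and 371 in Halo-NLS. The groups lay on both sides of Halo-NLS without overlap, and the log2 fold change between the lines was -2.57 (SE 0.25 and adjusted p = 4.42e-05). Mmp7 was the sole DEG among 26 tested metalloproteinases and their inhibitors. Plod2, which hydroxylates lysines of collagen, had 213, 138 and 163 against 877, 608 and 1036, a log2 fold change of -2.29 (SE 0.33 and adjusted p = 0.00193). Halo-NLS was lower than both, at 86.3, 32.1 and 36.5.

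Pde8b, a phosphodiesterase that degrades cyclic AMP, had normalized counts of 105, 97.3 and 61.5 against 508, 410.2 and 282. Adcy8, an adenylyl cyclase that makes it, had 9.5, 17.5 and 11.7 against 279, 141 and 57.6, and P2ry6, a receptor for UDP, had 46.1, 114 and 67.3 against 269.7, 272 and 394 (both chosen after their values were seen). All 3 fell in every SOX9-Halo library relative to every SOX9-mEGFP library, by 2.18, 3.61 and 2.04 on the log2 scale. St3gal1, a sialyltransferase of O-glycans, had 85.9, 132 and 94.6 against 475, 383 and 446. Reep1, which shapes the endoplasmic reticulum, had 79.6, 128 and 54.6 against 389, 487 and 334, and Rnf208, a RING-finger protein, 22.3, 68.1 and 46.8 against 249, 220.1 and 218. The transcription factor Dmrta2 had 24.7, 69.1 and 52.7 against 152, 227 and 299, and Tshz2, a teashirt zinc-finger protein, 31, 36 and 45.9 against 147, 131 and 252. These 5 falls had log2 fold changes between -2.33 and -2.06. With the 6 budding libraries alone, neither they nor Pde8b, Adcy8 and P2ry6 were called. Their adjusted p then ran from 0.0252 (St3gal1) to 0.148 (Dmrta2). Of the 29 falls, 18 were called higher in SOX9-mEGFP than in Halo-NLS alone (background 1.98% of genes), 4 lower in SOX9-Halo than in Halo-NLS alone (1.28%), 1 both (Mmp7) and 6 neither.

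Pyy, the hormone of ileal and colonic L cells, had normalized counts of 11.1, 19.5 and 4.9 in SOX9-Halo, 138, 92.4 and 56.8 in SOX9-mEGFP and 13.1, 10.3 and 10.1 in Halo-NLS, a log2 fold change of -3.001 (SE 0.49 and adjusted p = 0.00935). Its adjusted p was close to the threshold and reached 0.108 over the alternatives. It was the DEG among 24 enteroendocrine markers, of which Chga, a granule protein of all enteroendocrine cells, had 2939.6, 6819.9 and 1056 against 5606, 2981 and 1430.4, overlapping. Ly6e, a lipid-anchored surface protein of the fetal-like list, had 3022, 5585 and 4759 against 13782, 10503 and 16373, and 3842, 4520 and 6764 in Halo-NLS, a log2 fold change between the lines of -1.60 (SE 0.27 and adjusted p = 0.00578). Cox6b2, a testis form of a cytochrome c oxidase subunit, fell from 52.2, 40.5 and 57.6 to 6.4, 5.8 and 1. It was 1 of 97 tested respiratory chain genes to fall, next to 0.17% of all autosomal genes tested. The list had a median of 0.018.

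The promoters of the DEGs were searched for 2 sequence motifs because SOX9 binds DNA through its high mobility group domain and both lines are defined by it. The motifs were ACAATGG, a core that SOX proteins bind, and ATCAAAG, a core of TCF and LEF factors in Wnt signalling, on either strand, in windows from 250 bases before to 50 after each gene's start (RefSeq, GRCm38.p6). Neither motif contains the other. RefSeq windows were found for 23 of the 48 rises and 19 of the 29 falls. Among the rises, 1 window (4.35%) held ACAATGG and 1 (4.35%) held ATCAAAG, and among the falls 0 and 1 (5.26%), next to 2.75% and 3.08% of the 10866 tested autosomal genes with a window and 4.15% and 4.29% of all 27025 genes. These are the 3 matches, shown with their flanks and the motif in capitals, so that a reader can see them in place. Positions are GRCm39, found by exact match of the RefSeq window.
Isl2, chr9:55448226-55448254, plus strand, ACAATGG on the opposite strand, 196 bases before the RefSeq start: ggggctgcgctCCATTGTtcactccgaac
Zfp951, chr5:105008147-105008175, minus strand, ATCAAAG, 230 bases before the start: cctcggccctcATCAAAGactgcatttcc
Mmp7, chr9:7692092-7692112, plus strand, ATCAAAG, 247 bases before the start: aacATCAAAGtagctctgaga
All 3 lie inside the gene as the annotation of the count files draws it. The LIM-homeodomain gene Isl2 rose from 1.2, 1 and 0.8 to 8, 7.8 and 11.7 normalized counts, and the zinc-finger gene Zfp951 from 0, 0 and 1.6 to 66.8, 32.1 and 78. Isl2 averaged 5.08 over the 6 budding libraries and 20.07 over all 15. It was called in 6 of the 18 alternative fits and not with DESeq2, and it was not tested with the 6 budding libraries alone. Zfp951 was called in 9 of the 18. A match says nothing of binding, which was not measured here.

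Among the cell type marker lists, the Paneth cell list had the lowest median. Of 22 Paneth cell markers 19 were tested, all 19 had a negative log2 fold change with a median of -1.77, and for 16 every SOX9-Halo library was below every SOX9-mEGFP library, where 6.16% of all genes tested were. Mmp7 was the DEG among them. The 9 tested defensins, antimicrobial peptides of Paneth granules, had log2 fold changes between -4.68 and -1.37 with adjusted p from 0.0236 to 0.33, and none passed 0.01. Defa24 had normalized counts of 6454, 5379.8 and 6238 in SOX9-Halo, 10825, 13191 and 22655 in SOX9-mEGFP and 12142, 7483 and 9792 in Halo-NLS. Defa21 had 23.1, 14.6 and 92.7, 122.7, 216 and 1713 and 19.6, 19.5 and 89.2. Halo-NLS overlapped SOX9-Halo for Defa21 and lay above it for Defa24, and the third SOX9-mEGFP library was the highest for both. Defensins are near-identical paralogs. Reads that aligned to more than 1 place were not counted, so these counts cover uniquely aligned reads alone and the levels remain uncertain. Lyz1, the lysozyme of Paneth cells, had 14238, 13080.3 and 11016 in SOX9-Halo, 17561, 16180.2 and 22609 in SOX9-mEGFP and 27535, 22349 and 21589 in Halo-NLS, a log2 fold change between the lines of -0.56 (SE 0.35 and adjusted p = 0.864). Cd24a, a surface protein of Paneth and other cells, had 10256, 7697 and 6892 and 14907, 13986 and 16866, a log2 fold change of -0.88 (SE 0.20 and adjusted p = 0.046). Neither was a DEG, although neither overlapped. The summed level of the 22 markers was 1412, 1268 and 1199 CPM in SOX9-Halo, 1974, 2034 and 3361 CPM in SOX9-mEGFP and 2181, 1683 and 1716 CPM in Halo-NLS. Lyz1 was the most abundant of them at a mean of 486.9 CPM, and Defa23 was at 0 in all 6 budding libraries.

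**Figure D4:**
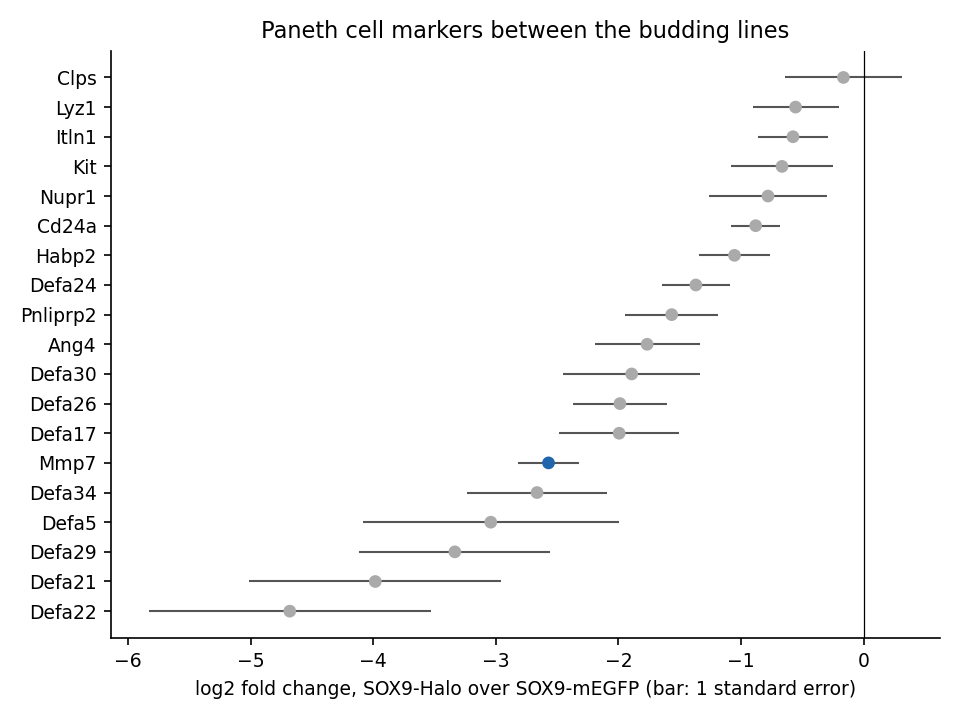
Log2 fold change of SOX9-Halo over SOX9-mEGFP budding organoids (points) with 1 standard error (bars) for the 19 tested Paneth cell markers, ordered by size. All 19 lie below 0, with a median of -1.77, and Mmp7 (blue) is the DEG.

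Pyy and Tnnt1 were the DEGs in the other marker lists. Goblet cell markers were negative in 17 of 17 with a median of -0.74, none was a DEG, and their summed levels overlapped, at 2709, 8634 and 2111 CPM in SOX9-Halo and 9805, 6774 and 4642 CPM in SOX9-mEGFP. Fcgbp, a goblet cell mucus protein, had normalized counts of 31986, 201004 and 40555 and 214103, 137817 and 84266, so that libraries of 1 line differed by more than the lines. Stem cell markers had a median of 0.00465 over 17 genes, which ran from -0.319 to 0.482 over the alternatives. Lgr5, a Wnt-dependent stem cell receptor, had 787, 1822 and 1375 and 449.5, 496 and 2412. Olfm4, another stem cell gene, had 1310.3, 363 and 4592 and 170.1, 692 and 15543, and replicate 3 was the highest in both lines. Enterocyte markers were positive in 13 of 16 with a median of 0.38, and none was a DEG. The median deviations of these markers from the mean of the 6 libraries were 0.392, 0.287 and 0.0822 in SOX9-Halo and 0.511, 0.287 and -1.24 in SOX9-mEGFP, and without the third SOX9-mEGFP library the median log2 fold change was 0.00894. Fabp1, a fatty acid binding protein, had 106881, 60089.9 and 42602 and 88530.1, 69542 and 15440.5, with the third library of each line the lowest. Tuft cell markers had a median of -0.41 over 13 genes, which was 0.161 without the first SOX9-mEGFP library. The 22 genes that the study used as markers of intestinal identity, lineage and the fetal-like state were all tested and none was a DEG, with log2 fold changes between -1.45 and 0.71 and a lowest adjusted p of 0.481. M cell, immune, endothelial and fibroblast sums were lower in every SOX9-Halo library than in every SOX9-mEGFP library, at ratios of the means of 0.729, 0.644, 0.659 and 0.637, and none of their genes was a DEG. Whether these sums bear on the Paneth result was not tested.

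Of 66 gene lists, which hold 1505 of the tested genes, 15 held a DEG and 51 held none, and 64 of the 77 DEGs were in no list. The medians of 58 lists lay within 0.5 of 0 on the log2 scale. Enzymes of glycolysis were below 0 in 17 of 17 with a median of -0.36, which ran from -0.612 to -0.132 over the alternatives. Those of cholesterol synthesis and uptake were below 0 in 21 of 22 with a median of -0.40 (-0.49 to -0.275). No gene of either was a DEG. Gapdh, a glycolytic dehydrogenase, had 194767, 240864 and 93053 in SOX9-Halo and 306922, 228004 and 124654 in SOX9-mEGFP, and Fdps, which makes farnesyl pyrophosphate, 17855, 23285 and 14442 and 30247, 29804 and 21244. Both overlapped between the lines. BMP and TGF-beta genes had a median of -0.39 over 21 genes, of which 7 were lower in every SOX9-Halo library, next to 6.16% of all autosomal genes tested. Unfolded protein and integrated stress response genes were negative in 23 of 26 with a median of -0.25, which was -0.11 without the genes of chromosomes 15 and 19, and 7 of the 26 were likewise lower in every SOX9-Halo library. Keratins had a median of -0.64 over 19 genes, of which 10 lie on those chromosomes, and -0.30 without them. Krt8, the main keratin of simple epithelium on chromosome 15, had 59380.3, 69242 and 49457 and 104862, 91487 and 72305, without overlap. Cell cycle genes (median 0.090 over 42, and -0.226 to 0.41 over the alternatives) held no DEG. Neither did interferon-stimulated genes (0.043 over 38, and -0.337 to 0.111) or YAP and TEAD genes and targets (-0.20 over 20, and -0.334 to -0.0322). The p53 targets (0.0039 over 24, and -0.0279 to 0.0907) held none either. Of 17 duodenal and jejunal genes 13 were positive with a median of 0.27, and Cybrd1 was the DEG. Here too the third SOX9-mEGFP library stood apart, and the median was -0.106 without it. Of 17 bile acid and ileal genes 14 were negative with a median of -0.26 (-0.48 to -0.008 over the alternatives). Pyy was the DEG among them.

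Some DEGs lay beside each other. There were 9 pairs of DEGs whose starts were within 1 Mb on the same chromosome, and in each pair both changed in the same direction. Of the pairs that rose, Cfhr4 and Cfhr2 lie 106688 bases apart on chromosome 1. Reg1 and Reg3b lie 52054 bases apart on chromosome 6. Casd1, which acetylates sialic acids, and Ppp1r9a, the actin-binding neurabin of an imprinted cluster, lie 302086 bases apart on the same chromosome. Casd1 had normalized counts of 95.5, 73 and 96.6 in SOX9-Halo and 0, 2.1 and 0.8 in SOX9-mEGFP, and Ppp1r9a 85.1, 49.6 and 158 and 4.9, 1 and 4.7, both with few reads in Halo-NLS. Ppp1r9a was the DEG among 27 tested imprinted genes. The RNA of Zfp783 (ENSMUSG00000121486) and Gimap9, an immunity-associated GTPase, lie 732982 bases apart on chromosome 6, which held 9 of the 48 rises and 847 of the 17050 autosomal genes tested. On chromosome 13, ENSMUSG00000134320 lies 187684 bases from Prss16, a serine protease. Among the falls, Cysrt1 and Rnf208 lie 4111 bases apart, 4930461G14Rik and Insyn1 38344, Cox6b2 and Tnnt1 247222, and the homeobox gene Irx4 and ENSMUSG00000143733 5495. The last pair overlaps on opposite strands, reads over exons of both were dropped, and counting ignored the strand of the rest. Irx4 had 27, 33.1 and 7.8 against 183, 176 and 146, and 4930461G14Rik 126, 133 and 159 against 662, 833 and 779. In all, the spans of 47 of the 77 DEGs overlap an annotated gene on the opposite strand.

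Genes of chromosomes 15 and 19 differed together. Over genes that average 10 or more normalized counts in the 6 libraries, the median log2 fold change was -0.485 on chromosome 15 (636 genes, 90.1% below 0) and -0.316 on chromosome 19 (586 genes, 84.6% below 0), while the other 17 autosomes had medians between 0.014 and 0.0559. On chromosome 15, the median deviation from the mean of the 6 libraries was -0.281, -0.0612 and -0.275 in SOX9-Halo and 0.237, 0.272 and 0.234 in SOX9-mEGFP. The second SOX9-Halo library deviated least, and the groups did not overlap. On chromosome 19 the deviations were -0.165, -0.0724 and -0.146 in SOX9-Halo and 0.0409, 0.187 and 0.294 in SOX9-mEGFP, again without overlap. The groups did not overlap on 6 of 19 autosomes, and on the other 4, chromosomes 2, 5, 6 and 9, the median log2 fold changes were between 0.0288 and 0.0527. An exact permutation test of 3 against 3 libraries cannot go below p = 0.10 (two-sided), which non-overlapping groups reach. Removal of the trend with GC content left -0.482 and -0.322. The shift ran along the chromosomes: in windows of 20 Mb the medians were between -0.436 and -0.503 on chromosome 15 and between -0.235 and -0.345 on chromosome 19, where the last window held 11 genes.

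In terms of level, genes of chromosome 15 were 1.40-fold and those of chromosome 19 1.24-fold higher in SOX9-mEGFP at the median. Against Halo-NLS, chromosome 15 had a median of 0.382 in SOX9-mEGFP and -0.0918 in SOX9-Halo, and chromosome 19 had -0.357 and -0.627. Some other autosomes also differed from Halo-NLS in the same direction in both lines. The medians were 0.358 in SOX9-mEGFP and 0.407 in SOX9-Halo on chromosome 13, and 0.318 and 0.308 on chromosome 3. On chromosome 5 they were small and opposite in sign, at -0.00606 and 0.0408. Between the spheroid lines the median of SOX9-Halo over SOX9-mEGFP was -0.416 on chromosome 15 and 0.553 on chromosome 19, next to -0.591 on chromosome 18 and 0.475 on chromosome 8, which had medians of 0.0291 and 0.0373 between the budding lines. Chromosome 15 thus had the same direction in both morphologies, and chromosome 19 did not. Of the 29 falls 6 were on chromosome 15 and 2 on chromosome 19, among them Ly6e, St3gal1, Adcy8 and the corepressor gene Rcor2. Of the 48 rises 2 and 1 were, namely Sdc2, Apobec3 and Fam111a. Chromosomes 15 and 19 held 741 and 656 of the 17050 autosomal genes tested. Without these chromosomes 45 rises and 21 falls remain. The Paneth cell list, with 2 genes on them, had a median of -1.89 without these. DNA was not measured, and the cause of the shifts was not tested.

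**Figure D5:**
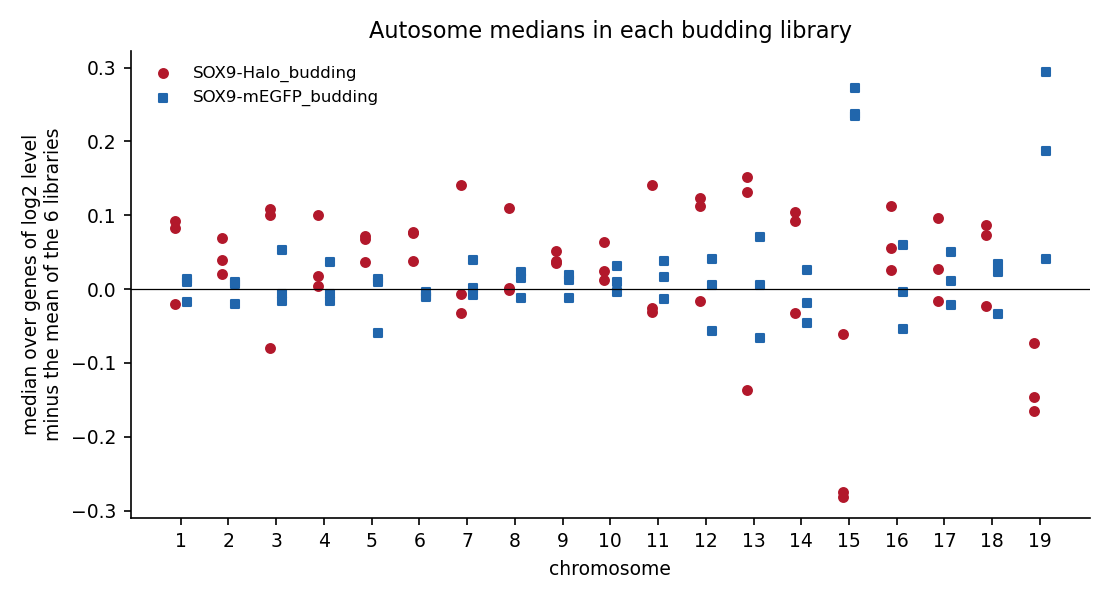
Median over the genes of each autosome of the log2 level minus its mean over the 6 budding libraries, with 1 point per library (circles SOX9-Halo, squares SOX9-mEGFP). On chromosome 15 the SOX9-Halo libraries lie between -0.281 and -0.0612 and the SOX9-mEGFP libraries between 0.234 and 0.272, and on chromosome 19 the groups are likewise apart.

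In spheroids, which are other libraries of these lines, some DEGs between the budding lines kept their difference and others lost or turned it. SOX9-Halo spheroids were called higher than SOX9-mEGFP spheroids at 3.59% of the autosomal genes tested and lower at 9.64%. Of the 48 rises in budding organoids, 17 were called higher in SOX9-Halo spheroids too, 3 lower and 28 neither, with a median log2 fold change of 0.46 and the same sign in 28. Of the 29 falls, 12 were called lower, 3 higher and 14 neither, with a median of -0.75 and the same sign in 18. Zfp503, at 2714, 3829 and 4717 normalized counts in SOX9-Halo and 0, 1 and 0 in SOX9-mEGFP spheroids, and Gm42047, at 8856, 9605 and 10193 and 1.8, 6 and 3.8, differed between the lines in both morphologies. S100a6 did not keep its direction, with 9888, 9958 and 8656 in SOX9-Halo and 18121, 16674 and 18832 in SOX9-mEGFP spheroids. Reg1, Reg3b and Ctrb1, the 3 rises that were called lower in SOX9-Halo spheroids, had next to no reads in these spheroids. Reg3b had 0, 0 and 5.4 in them against 78.1, 87.1 and 81.9 in SOX9-mEGFP spheroids. Mmp7 fell in both morphologies, and in spheroids it had 16.6, 14.2 and 12.6 in SOX9-Halo against 44544, 43802 and 37132 in SOX9-mEGFP. A test of the interaction of line and morphology called 40 of the 77 DEGs, next to 7.41% of all autosomal genes tested. The interaction contains the difference in budding organoids by which the DEGs were chosen, so this count is a description.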

How the data were processed

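Raw read counts per gene were deposited for each of the 15 libraries. Per the study's methods and processing notes, the authors trimmed reads with cutadapt 4.5, aligned them uniquely to GRCm39 (mm39) with STAR and counted them with HTSeq 2.0.2 in union mode without regard to strand, so reads over overlapping genes were dropped as ambiguous (9.93% to 11.2% in the budding libraries, with 2.36% to 4.67% in no gene). Both classes were left out of library sizes. A deposited table of the authors' own DESeq2 comparisons was not used, and no column of sample values was left over.

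Counts were analysed with edgeR 4.0.16 in R 4.3.3: genes passing filterByExpr, TMM scaling, a quasi-likelihood fit with 1 coefficient for each of 5 conditions, and Benjamini-Hochberg adjustment over all 17560 genes tested on every chromosome, of which 17050 autosomal rows are reported. The study's thresholds were kept (adjusted p of at most 0.01, at least 2-fold, mean normalized count of at least 10), and its DESeq2 (version 1.42.0 here) and limma-voom (limma 3.58.1) were alternatives. The script was tested on simulated counts. Medians of libraries used log2(normalized count + 1). Per-library shares and floors cover counting error only, and at 29279812 to 40559766 counts per budding library a gene without reads is given as under 3 reads per library.

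Named genes were Sox9, the 10 largest rises and falls with a mean of at least 100 over the 6 budding libraries and no overlap, called members and the 2 most abundant members of each list, DEGs within 1 Mb of another, and 22 of the study's markers. Other genes were chosen after their values were seen. Some are marked so in place, but Defa24, Defa21, Gm47761 and 1700030C10Rik are not. Members and lists were chosen with earlier results of these data known. Replicates were checked for duplicates, and none was found. Some genes are not reported here.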

Additional observations from a re-analysis of the deposited data

Results flagged for a closer look

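At 40 of the 77 DEGs, the difference between the lines was not the same in spheroids as in budding organoids by the test of the interaction (edgeR's quasi-likelihood test, adjusted p of at most 0.01 and a difference of at least 1 on the log2 scale). Values are the log2 fold change of SOX9-Halo over SOX9-mEGFP in spheroids minus that in budding organoids, and where a condition has no reads the fitted value depends on the prior count and is no bound. These values contain the difference in budding organoids by which the DEGs were chosen, and the counts are a description.

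Of the rises in SOX9-Halo budding organoids, 22 had a lower value in spheroids. They were Reg1 (-12.00), Cfhr2 (-11.63), Ulbp1 (-11.29), Zfp951 (-10.05), ENSMUSG00000134779 (-10.01), Ctrb1 (-9.89), Reg3b (-9.21), the Zfp783 RNA (-9.11), Fam20a (-8.41), Cybrd1 (-7.89), Gimap9 (-5.83), Apobec3 (-5.25), Smoc1 (-5.03), ENSMUSG00000132705 (-4.77), S100a6 (-3.99), Sdc2 (-3.12), Isl2 (-3.11), Slc47a1 (-3.06), Fzd3 (-1.93), Rnf130 (-1.53), Rsu1 (-1.35) and Prss16 (-1.33). Cybrd1, for example, had normalized counts of 5.9, 2.8 and 5.4 in SOX9-Halo spheroids and 22.2, 27 and 27.6 in SOX9-mEGFP spheroids, and Sdc2 had 926, 879.7 and 767 and 763, 725 and 932, overlapping. Of the rises, 2 had a higher value in spheroids, Zfp503 (4.12) and ENSMUSG00000127251 (4.26). The latter had 138967, 95129.5 and 104832 in SOX9-Halo spheroids against 38.2, 71.1 and 85.7.

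Of the falls, 13 had a higher value in spheroids, namely Tst (1.53), 4930461G14Rik (1.69), Gm50323 (1.79), Bend5 (2.06), Rcor2 (2.33), Plod2 (2.50), Reep1 (2.65), Cysrt1 (2.70), Rnf208 (2.72), Insyn1 (2.96), Bnipl (2.96), Fgd3 (4.34) and Sntb1 (7.39). Sntb1, which encodes a syntrophin of the dystrophin complex, had 6.4, 5.8 and 2 in SOX9-Halo against 38.9, 36.3 and 18.7 in SOX9-mEGFP budding organoids and 208, 177 and 172 against 8.9, 7 and 4.8 in spheroids, so that its direction turned. The other 3 falls had a lower value in spheroids, Mmp7 (-8.93), Tnnt1 (-4.77) and St3gal1 (-2.80).

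Outside the autosomes, 3 of 479 tested X-linked genes rose in SOX9-Halo and none fell. Xist, the RNA that silences an X chromosome in cis, was at 9573, 1150.1 and 14449.6 normalized counts in SOX9-Halo and at 2.4, 0 and 6.2 in SOX9-mEGFP, with 2.6, 1.1 and 5 in Halo-NLS, a log2 fold change of 11.31, and 0.018 was its adjusted p with the 6 budding libraries alone. Rps6ka6, a ribosomal S6 kinase, had 124, 40.9 and 139.5 against 1.2, 3.1 and 1.6 (log2 fold change 5.61), and 4933407K13Rik had 85.9, 42.8 and 88.8 against 1.2, 0 and 3.1 (5.404). The second SOX9-Halo library was the lowest of its line for Xist.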

How the results depend on the processing

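All 77 DEGs kept their direction under each alternative that tested them. Against 48 rises and 29 falls, the counts moved by over 1.5 times without a filter on low counts (110 and 157), with the 6 budding libraries alone (17 and 2), with DESeq2 (87 and 102) and at an adjusted p of at most 0.05 (81 and 80), and for falls without the spheroids (5). Of the calls with DESeq2, 47 rises and 29 falls were shared. Leaving out 1 budding library at a time gave 33 to 56 rises and 8 to 41 falls, with 8 falls without the first SOX9-Halo library and 10 without replicate 3 of that line or without the second SOX9-mEGFP library. Other scalings, filters and tools, also with autosomal genes alone (added after seeing the data), stayed within 1.5 times. The median over all autosomal genes was 0.0106, and 0.0767 with library sizes alone. Of 66 list medians, 25 kept their sign under the scalings, filters and choices of libraries tried (at most 11 for a list) and 41 turned under at least 1 of them, 17 of these without the third SOX9-mEGFP library. Those of Paneth cells (-1.82 to -1.42), goblet cells (-1.16 to -0.373), BMP and TGF-beta genes (-0.711 to -0.37) and keratins (-0.71 to -0.476) were among the 25, and the medians of chromosomes 15 (-0.553 to -0.422) and 19 (-0.39 to -0.259) kept their sign too.

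Replicate numbers are shared by the lines. Same-numbered libraries correlated in their deviations from the line means at 0.0415, 0.351 and 0.737, where libraries of different numbers averaged -0.199. All same-number values lay above that mean, yet only 1 of 3 SOX9-Halo libraries correlated best with its own number. The check was thus mixed, and the main fit was made without pairing. Whether libraries of the same number share a batch was not tested. With the replicate number as a block, edgeR called 8 rises and 0 falls in the 6 budding libraries, where 905 genes were lower at an unadjusted p under 0.05, and 51 and 39 in all 15.

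Signs turned for genes that were not DEGs. With 1 budding library left out at a time, Lgr5 (0.24) ran from -0.13 to 1.47, below 0 without the second SOX9-Halo (-0.053) and the first and second SOX9-mEGFP libraries (-0.13 and -0.080). The log2 fold change of Cdx2 (0.0062) ran from -0.20 to 0.13 and was -0.00475 with the block in all 15 libraries and -0.016 with limma-voom. Olfm4 (-1.39) ran from -2.69 to 2.23 and Fabp1 (0.27) from -0.20 to 0.71. Values turned without replicate 3 of SOX9-mEGFP for both of these and Cdx2 (-0.068), without replicate 2 of SOX9-Halo for Cdx2 (-0.20) and without its replicate 1 for Fabp1 (-0.17). The cause was not tested.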
